A study of Mus musculus with 6 samples.

Results

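The genes described are the potassium channel genes of the mouse, taken as all rows of the count table whose symbol begins with Kcn. Kcnk3, Kcnj8 and 5 transcripts with os or ot in their symbol were left out, so 92 of the 49568 rows were members. The lungs of 4-month-old female mice on a C57BL/6 background were sequenced for poly(A) RNA, 3 of them TNF+ (TNF-Tg) and 3 of them TNF- littermates (wildtype, WT), with 1 library per mouse. TNF+ mice carry a transgene for human TNF-alpha (copy number 1) that is expressed in excess, and develop erosive arthritis and pulmonary hypertension. The promoter that drives the transgene is not given in the sources used here. The labels call the material primary cells, yet whole lung was harvested, so every value is a mixture over all cells of the lung, and fewer cells of a type cannot be told apart from less RNA per cell.

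Total counts per lung were 25396923 to 30049463 in TNF+ mice and 31400978 to 32529408 in TNF- mice, and a gene with 3 counts stood at 0.0922 to 0.118 CPM (counts scaled to a common library size), a limit set by counting error alone. Same-genotype lungs differed by far more than sampling noise (chi-square per degree of freedom 58.8 to 154 over the 6 pairs). A pair of libraries stood apart. Gm42418 took up 5.22% of TNF+ replicate 1, and TNF- replicate 1 held 3461 CPM over 6 squamous epithelium genes and 1741 CPM over 6 skeletal muscle genes, where the other 5 lungs held at most 32.0 and 40.7 CPM. Counts of members are therefore also given without both libraries.

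Potassium channels let potassium leave or enter the cell along its gradient and so set the resting potential and end electrical excitation. Channels of the voltage-gated class open on depolarization, inward rectifiers and 2-pore (leak) channels hold the resting potential, and calcium- or sodium-activated channels couple the potential to those ions, while modifier and auxiliary subunits change the gating, the traffic or the surface number of the pores they join. In the lung these channels control the tone of pulmonary artery and airway smooth muscle, recycle potassium in fluid-transporting epithelium, and sustain calcium entry in macrophages and lymphocytes. By symbol the 92 members comprised 30 voltage-gated genes, 10 modifier genes, 14 inward rectifiers, 13 2-pore channels, 8 calcium- or sodium-activated channels, 16 auxiliary genes and Kcnrg, whose product interferes with assembly of voltage-gated channels.

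The pore itself is the feature that the pore-forming members share, and the Kcn symbol is given to genes of potassium channels. Its presence thus follows from the choice of members and is given only as a description. Their selectivity filter is written in the coding sequence as a signature of 5 residues, threonine, any residue, glycine, tyrosine or phenylalanine, and glycine. Read in frame in the protein-coding transcripts of GENCODE M21, this signature was found in 64 of the 75 members of the pore-forming classes, and the other 11 members (Kcnh1, Kcnh2, Kcnh3, Kcnh4, Kcnh6, Kcnh7, Kcnh8, Kcnn1, Kcnn2, Kcnn3 and Kcnj14) carried the form that begins with serine. None of the 16 auxiliary genes held the threonine form (0 of 16), nor did Kcnrg, against 1.06% of all protein-coding genes. To show how the filter differs between classes, the stretch is given for members of each pore-forming class that rose or fell, with 15 bases on either side, 5′ to 3′ on the coding strand, the 5 signature codons in capitals, and mm10 positions where the stretch lies in a single exon.
Kcnd1 (across a splice junction): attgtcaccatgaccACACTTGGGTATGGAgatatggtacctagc
Kcnf1 (chr12:17175046-17175090): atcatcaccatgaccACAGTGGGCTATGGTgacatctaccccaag
Kcns3 (chr12:11091560-11091604): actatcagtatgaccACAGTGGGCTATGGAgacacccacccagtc
Kcnj5 (chr9:32322544-32322588): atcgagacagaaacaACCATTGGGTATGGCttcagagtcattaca
Kcnn4 (chr7:24379183-24379227): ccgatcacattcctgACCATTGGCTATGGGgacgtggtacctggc
Kcnk13, first pore (across a splice junction): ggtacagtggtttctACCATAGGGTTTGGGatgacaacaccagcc
Kcnk13, second pore (chr12:100061361-100061405): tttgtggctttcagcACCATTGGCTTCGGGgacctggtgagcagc
Kcnk12, first pore (across a splice junction): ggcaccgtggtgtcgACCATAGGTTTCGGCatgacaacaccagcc
Kcnk12, second pore (chr17:87746438-87746482): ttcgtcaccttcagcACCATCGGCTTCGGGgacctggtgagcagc
The 2-pore members Kcnk13 and Kcnk12 held the signature at 2 places in 1 coding sequence and the other 5 genes shown at 1. Kcnn4 stands alone for its class because Kcnn2 and Kcnn3, which fell, carry the serine form.

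Most of the potassium channel genes that could be tested were lower in TNF+ lungs, and a smaller set was higher. The filter on low counts left 56 of the 92 members. Of these, 42 differed between TNF+ and TNF- lungs at an adjusted p of 0.05 by edgeR's quasi-likelihood test, 30 lower and 12 higher, and 14 did not pass. Over all 19199 genes tested, 47.4% passed, 24.0% higher and 23.4% lower, where 21.4% of the tested members were higher and 53.6% were lower. The median log2 fold change of the tested members was -0.66, and that of all genes tested was 0.03. In 44 of the 56 tested members the TNF+ and TNF- lungs did not overlap, against 58.7% of all genes tested. A gene could pass the filter through its higher genotype alone, so these counts describe the genes that passed and not the family. With at least 10 counts asked of every lung, 47 members were tested and 36 passed, 25 lower and 11 higher, while 49.0% of all genes passed. Without TNF+ replicate 1 and TNF- replicate 1, 34 members passed, 24 lower and 10 higher, against 31.2% of all genes.

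**Figure D1:**
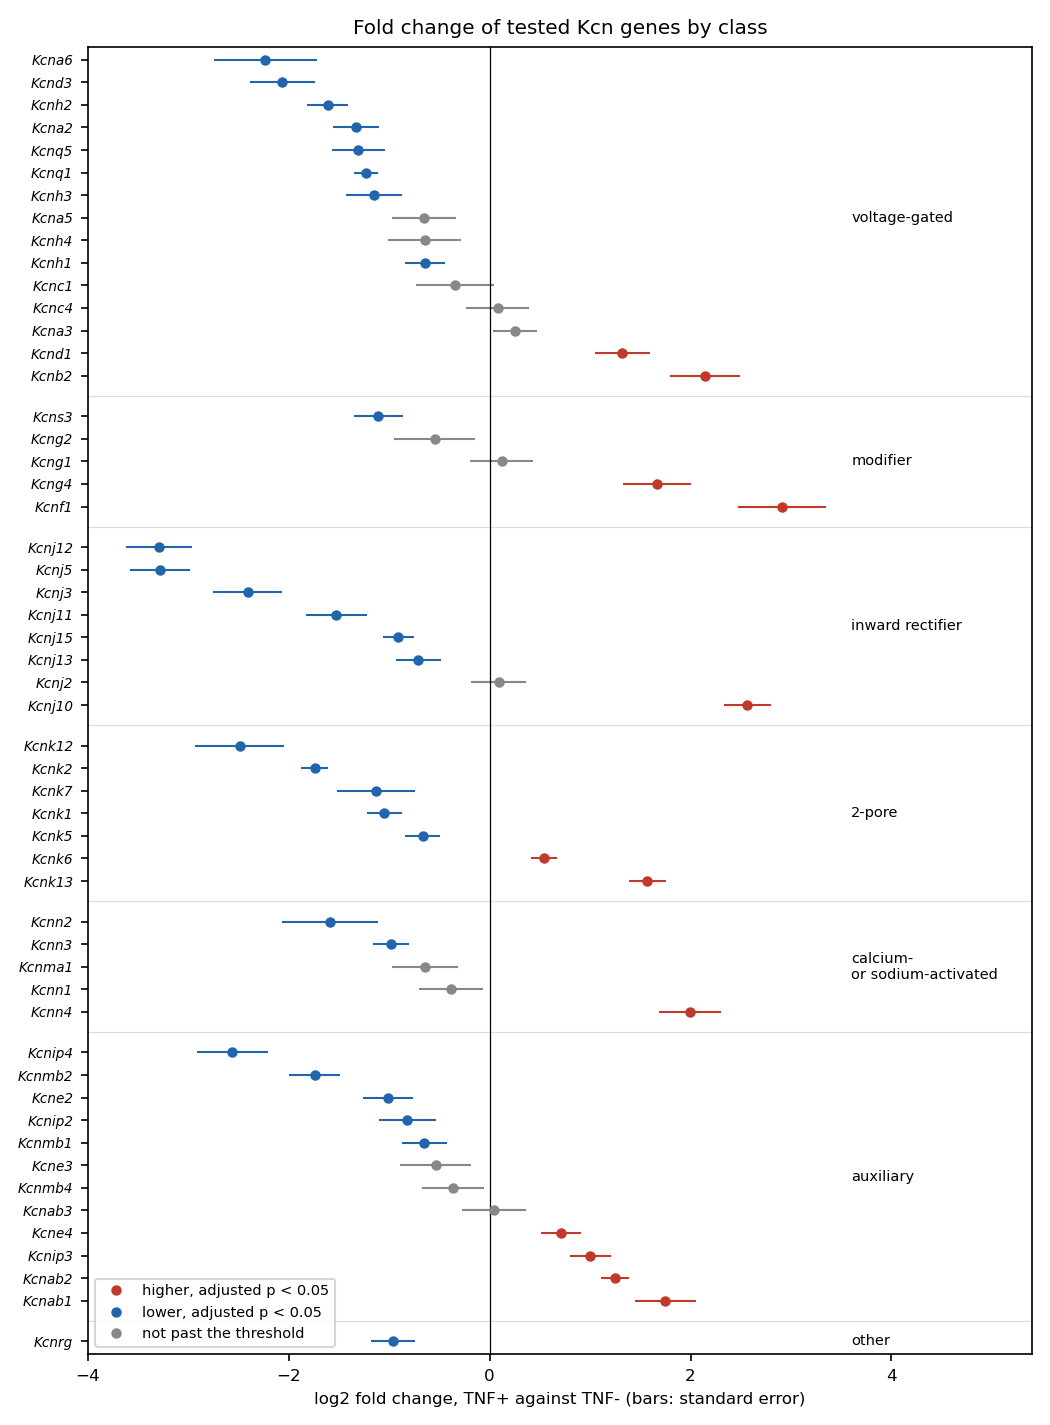
Log2 fold change (TNF+ against TNF-) of 53 tested Kcn genes, 1 point per gene with its standard error, grouped by class and coloured by the test at an adjusted p of 0.05. Blue points (28 genes) lie left of 0 in every class, and red points (12 genes) lie right of 0 in every class but Kcnrg's, from 0.54 for Kcnk6 to 2.91 for Kcnf1.

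Of the 30 voltage-gated genes 18 were tested, and 10 were lower and 2 higher in TNF+ lungs (median log2 fold change -0.90). Kcnb2, a delayed rectifier, was among those that rose, with 80.4, 83.8 and 54.8 normalized counts in TNF+ lungs and 11.4, 13.4 and 24.0 in TNF- lungs (log2 fold change 2.14, SE 0.35, adjusted p = 0.00151). Kcnd1, a transient outward (A-type) channel, was the other, with 152, 143 and 186 normalized counts in TNF+ lungs and 40.9, 83.5 and 67.6 in TNF- lungs (log2 fold change 1.32, SE 0.28, adjusted p = 0.00519). Neither Kcnb2 nor Kcnd1 overlapped between the genotypes.

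Kcnq1, the pore of the slow cardiac delayed rectifier and a potassium recycling channel of epithelia, had 517, 572 and 487 normalized counts in TNF+ lungs and 1075, 1357 and 1259 in TNF- lungs (log2 fold change -1.23, SE 0.12, adjusted p = 0.000124). Kcnh2, the pore of the rapid cardiac delayed rectifier, had 135, 108 and 179.5 normalized counts in TNF+ lungs and 377, 443 and 469.7 in TNF- lungs (log2 fold change -1.61, SE 0.21, adjusted p = 0.000464). Kcnd3, another A-type channel, had 22.4, 19.7 and 19.8 normalized counts in TNF+ lungs and 67.6, 67.2 and 125 in TNF- lungs (log2 fold change -2.07, SE 0.32, adjusted p = 0.00128). All 3 genes had every TNF+ lung under every TNF- lung. The 6 cardiac muscle markers given with the inward rectifiers were lower in the same lungs, and their part in the values of Kcnq1, Kcnh2 and Kcnd3 was not tested.

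Kcna2, a low-threshold channel of axons, had 104, 111 and 158 normalized counts in TNF+ lungs and 388, 297 and 254 in TNF- lungs (log2 fold change -1.33, SE 0.23, adjusted p = 0.00207). Kcnq5, a channel of the slow M-type current, had 88.4, 109.7 and 67.1 normalized counts in TNF+ lungs and 263, 234 and 158 in TNF- lungs (log2 fold change -1.31, SE 0.26, adjusted p = 0.00422). Neither gene overlapped between genotypes, and both were lower in TNF+ lungs. Kcna6 (log2 fold change -2.23, adjusted p = 0.00832), Kcnh3 (log2 fold change -1.15, adjusted p = 0.00997) and Kcnh1 (log2 fold change -0.64, adjusted p = 0.027) were also lower. Kcnh1 lost the call without TNF+ replicate 1, without TNF+ replicate 3 and without TNF- replicate 1 (adjusted p = 0.00608 to 0.164 over the alternatives). Among the 6 that did not pass were Kcna5, Kcnh4, Kcnc1, Kcnc4 and Kcna3, with log2 fold changes from -0.65 for Kcna5 to 0.25 for Kcna3. Kcna5, a channel of pulmonary artery smooth muscle and atrium, had 15.8, 29.0 and 20.8 normalized counts in TNF+ lungs and 27.6, 36.5 and 40.0 in TNF- lungs, and Kcna3, the main voltage-gated channel of T cells, had 67.3, 59.0 and 55.7 normalized counts in TNF+ lungs and 57.1, 48.9 and 46.3 in TNF- lungs. In both genes the genotypes overlapped.

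**Figure D2:**
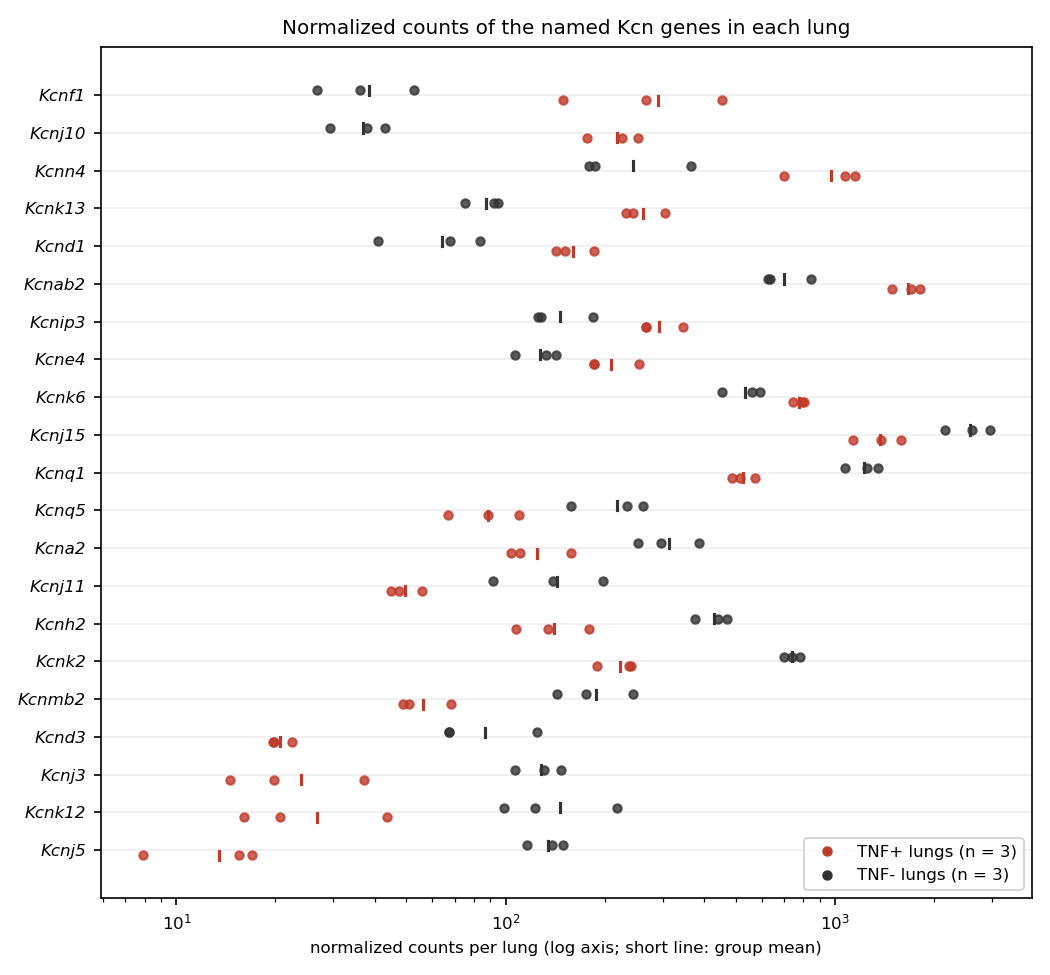
Normalized counts (log axis) of 21 named Kcn genes in each of the 3 TNF+ lungs and 3 TNF- lungs, with a short line at each group mean. In every gene drawn the TNF+ points and the TNF- points lie apart, from Kcnf1 with 268, 455 and 149 against 36.2, 52.8 and 26.7 at the top to Kcnj5 with 7.91, 15.5 and 17.0 against 139, 149.7 and 117 at the bottom. The genes were chosen mainly for a large change past the threshold, so this separation largely follows from the choice. The genotypes did not overlap in 44 of the 56 tested members and in 58.7% of all genes tested.

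Modifier subunits form no channel on their own and join voltage-gated pores. Of 10 genes 5 were tested, with 2 higher and 1 lower (median log2 fold change 0.12). Kcnf1 (ENSMUSG00000051726.6, chr12:17172100-17176888, minus strand) had 268, 455 and 149 normalized counts in TNF+ lungs and 36.2, 52.8 and 26.7 in TNF- lungs, the largest rise among the tested members (log2 fold change 2.91, SE 0.44, adjusted p = 0.00105, 7.53-fold). The TNF+ lungs spread widely, and the log2 fold change was 2.43 to 3.21 with each lung left out in turn. Kcng4 was higher at a low level, with 25, 27 and 28 counts in TNF+ lungs and 8, 13 and 8 in TNF- lungs (log2 fold change 1.67, SE 0.34, adjusted p = 0.00485), and lost the call without both libraries that stood apart (adjusted p = 0.00441 to 0.061 over the alternatives). Kcns3 was lower, with 249, 202 and 188 normalized counts in TNF+ lungs and 468, 596 and 309.5 in TNF- lungs (log2 fold change -1.11, SE 0.24, adjusted p = 0.00649). Both directions thus occurred in the class, and Kcng1 (log2 fold change 0.12, adjusted p = 0.782) and Kcng2 (log2 fold change -0.55, adjusted p = 0.297) did not pass.

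Inward rectifiers held the deepest falls of the family. Of 14 genes 8 were tested, with 6 lower, 1 higher and 1 that did not pass (median log2 fold change -1.22). Kcnj5 (ENSMUSG00000032034.6, chr9:32314707-32344350, minus strand) and Kcnj3 encode the subunits that together form the acetylcholine-gated channel of atrial muscle. Kcnj5 had 7.91, 15.5 and 17.0 normalized counts in TNF+ lungs and 139, 149.7 and 117 in TNF- lungs (log2 fold change -3.28, SE 0.30, adjusted p = 8.20e-05, 9.74-fold lower). Kcnj3 had 14.5, 37.3 and 19.8 normalized counts in TNF+ lungs and 147, 130.5 and 107 in TNF- lungs (log2 fold change -2.41, SE 0.34, adjusted p = 0.000818). Kcnj12, a strong inward rectifier of heart and skeletal muscle, had 9, 7 and 9 counts in TNF+ lungs and 101, 113 and 73 in TNF- lungs (log2 fold change -3.29, SE 0.33, adjusted p = 0.000139). All 3 genes kept every TNF+ lung under every TNF- lung, and with each lung left out in turn their log2 fold changes were -3.50 to -3.08, -2.87 to -2.21 and -3.52 to -3.14. Markers of cardiac muscle moved with them, since 6 of 6 (Myh6, Tnnt2, Actc1, Nppa, Myl7 and Tnni3) were lower and their sum was 291 to 363 CPM in TNF+ lungs and 1069 to 1393 in TNF- lungs. Their part in these falls was not tested. Without TNF- replicate 1, the lung with the skeletal muscle genes, Kcnj12 had a log2 fold change of -3.26 (adjusted p = 3.63e-12 to 0.00139 over the alternatives). Any part of skeletal muscle in the values of Kcnj12 was not tested.

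Kcnj11, the pore of ATP-sensitive channels, had 44.8, 47.6 and 55.7 normalized counts in TNF+ lungs and 198, 139 and 91.6 in TNF- lungs (log2 fold change -1.53, SE 0.30, adjusted p = 0.00407). Kcnj15, a rectifier of secretory epithelia, had the highest mean count of any member, 1387, 1596 and 1141 normalized counts in TNF+ lungs and 2960.3, 2614 and 2165 in TNF- lungs (log2 fold change -0.91, SE 0.16, adjusted p = 0.00199). Both genes were lower with no overlap. Kcnj13, an epithelial rectifier, was lower too (log2 fold change -0.71, adjusted p = 0.0306), but lost the call without TNF+ replicate 1 or 3 or TNF- replicate 1 (adjusted p = 0.0131 to 0.206 over the alternatives), and 49.1% of its exon length lies under exons of Gigyf2 on the other strand. Kcnj10 (ENSMUSG00000044708.5, chr1:172341210-172374085, plus strand), a rectifier known from glia and kidney, ran against the class, with 177, 227 and 252 normalized counts in TNF+ lungs and 38.1, 43.2 and 29.4 in TNF- lungs (log2 fold change 2.57, SE 0.23, adjusted p = 8.20e-05, 5.92-fold higher). All TNF+ lungs lay above all TNF- lungs. Kcnj2, the founding strong rectifier of muscle, macrophages and endothelium, had 207, 237 and 375 normalized counts in TNF+ lungs and 293, 295 and 183 in TNF- lungs, which overlapped (log2 fold change 0.09, SE 0.27, adjusted p = 0.808).

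All 7 of the 2-pore genes that were tested, of 13, passed the threshold, 5 lower and 2 higher (median log2 fold change -1.05). Kcnk12, a subunit related to Kcnk13, had 43.5, 20.7 and 16.1 normalized counts in TNF+ lungs and 123, 98.8 and 219 in TNF- lungs (log2 fold change -2.49, SE 0.44, adjusted p = 0.00237). Kcnk2, a leak channel opened by stretch and lipids, had 240.0, 238 and 189.9 normalized counts in TNF+ lungs and 741, 703 and 785 in TNF- lungs (log2 fold change -1.74, SE 0.13, adjusted p = 3.79e-05). Neither gene overlapped between genotypes, and the spread of Kcnk2 within a genotype was small. Kcnk1, a weak leak channel of epithelia, was lower (log2 fold change -1.05, adjusted p = 0.00166), as were Kcnk5, an alkali-activated leak channel (log2 fold change -0.67, adjusted p = 0.0141), and Kcnk7 (log2 fold change -1.13, adjusted p = 0.0432). Kcnk7, with 8, 12 and 7 counts in TNF+ lungs and 30, 20 and 19 in TNF- lungs, lost the call with DESeq2, with limma-voom and without any 1 lung other than TNF- replicate 3 (adjusted p = 0.039 to 0.21 over the alternatives). The 2 genes that rose were Kcnk13 and Kcnk6. Kcnk13, the tonic leak channel of microglia, had 306, 244 and 232 normalized counts in TNF+ lungs and 75.2, 92.1 and 95.2 in TNF- lungs (log2 fold change 1.57, SE 0.19, adjusted p = 0.000314). Kcnk6, a potassium efflux channel of macrophages, had 745, 794 and 806 normalized counts in TNF+ lungs and 594, 560.3 and 454 in TNF- lungs (log2 fold change 0.54, SE 0.13, adjusted p = 0.00915). Both had every TNF+ lung above every TNF- lung, though Kcnk6 rose only 1.46-fold.

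Of the 8 calcium- or sodium-activated genes 5 were tested, with 2 lower and 1 higher (median log2 fold change -0.64). Kcnn4 (ENSMUSG00000054342.8, chr7:24370263-24386690, plus strand), the intermediate-conductance calcium-activated channel of macrophages, activated lymphocytes and red cells, had 1079, 1150.1 and 701 normalized counts in TNF+ lungs and 179.8, 187 and 366 in TNF- lungs (log2 fold change 1.99, SE 0.31, adjusted p = 0.0012, 3.98-fold higher). TNF+ replicate 3 was the lowest of its group and TNF- replicate 3 the highest of its group, and the groups stayed apart. The small-conductance channels went the other way, Kcnn3 with 111, 113 and 90.7 normalized counts in TNF+ lungs and 197, 238 and 186 in TNF- lungs (log2 fold change -0.98, SE 0.18, adjusted p = 0.00286) and Kcnn2 with 11, 4 and 21 counts in TNF+ lungs and 34, 38 and 54 in TNF- lungs (log2 fold change -1.59, SE 0.48, adjusted p = 0.025). Kcnn2 lost the call without TNF+ replicate 1 and without TNF- replicate 2 or 3 (adjusted p = 0.0134 to 0.0701 over the alternatives). Kcnn1 (log2 fold change -0.39, adjusted p = 0.345) did not pass. Kcnma1, the pore of the large-conductance channel that relaxes smooth muscle, had only 9, 12 and 11 counts in TNF+ lungs and 23, 17 and 18 in TNF- lungs and did not pass (log2 fold change -0.64, SE 0.33, adjusted p = 0.138), although its TNF+ lungs all lay below the TNF- lungs.

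Of the 16 auxiliary genes 12 were tested, and 5 were lower and 4 higher (median log2 fold change -0.45). Kcnab2, a cytoplasmic beta subunit of Kcna channels with an aldo-keto reductase fold, had 1713, 1816 and 1495 normalized counts in TNF+ lungs and 636, 628 and 847 in TNF- lungs (log2 fold change 1.25, SE 0.14, adjusted p = 0.000258). Its relative Kcnab1 rose at a far lower count, with 50, 58 and 41 counts in TNF+ lungs and 16, 16 and 20 in TNF- lungs (log2 fold change 1.75, SE 0.30, adjusted p = 0.00204), and Kcnab3 did not pass (log2 fold change 0.04, adjusted p = 0.92). Kcnip3, a calcium sensor that binds A-type channels and also DNA, had 266, 346 and 266 normalized counts in TNF+ lungs and 126, 129 and 184 in TNF- lungs (log2 fold change 1.00, SE 0.20, adjusted p = 0.00474). Kcnab2 and Kcnip3 were higher in each TNF+ lung than in any TNF- lung. Kcne4, an inhibitory single-span subunit, had 255, 186 and 185 normalized counts in TNF+ lungs and 107, 142 and 133 in TNF- lungs (log2 fold change 0.71, SE 0.20, adjusted p = 0.0194), but the call was lost with the replicate number as a block, without TNF+ replicate 1, without TNF- replicate 1 and without both (adjusted p = 0.0117 to 0.239 over the alternatives).

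Kcnmb2, an inactivating beta subunit of the large-conductance channel, had 48.8, 68.3 and 51.0 normalized counts in TNF+ lungs and 144, 176 and 245 in TNF- lungs (log2 fold change -1.74, SE 0.26, adjusted p = 0.000977). Kcnmb1, the smooth muscle beta subunit, was lower by less, with 119, 141 and 174 normalized counts in TNF+ lungs and 176, 221 and 284 in TNF- lungs (log2 fold change -0.65, SE 0.23, adjusted p = 0.0443), and lost the call with limma-voom, with total counts as the only scaling and without TNF+ replicate 1 or 2 or TNF- replicate 2 or 3 (adjusted p = 0.0186 to 0.133 over the alternatives). Kcnmb4 did not pass (log2 fold change -0.37, adjusted p = 0.364). Kcne2, a partner of Kcnq1 in epithelia, was lower (log2 fold change -1.01, adjusted p = 0.0113), and Kcne3 did not pass (log2 fold change -0.54, adjusted p = 0.242). Of the other calcium sensors of A-type channels, Kcnip4 (log2 fold change -2.56, adjusted p = 0.000668) and Kcnip2 (log2 fold change -0.82, adjusted p = 0.0445) were lower, while Kcnip1, with 6, 8 and 16 counts in TNF+ lungs and 2, 4 and 2 in TNF- lungs, was too low to be tested and was higher, as Kcnip3 was, when the filter was dropped. Kcnip2 lost the call with DESeq2 and without any 1 lung other than TNF+ replicate 2 (adjusted p = 0.0138 to 0.186 over the alternatives). Kcnrg, the gene outside these classes, was lower (log2 fold change -0.96, adjusted p = 0.00844).

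A list of 9 genes outside the family encodes proteins that assemble with these channels. Of the 6 that were tested, 3 were lower and 1 was higher, with a median log2 fold change of -0.81. Amigo1, an adhesion protein that joins voltage-gated channels, had 531, 567 and 562 normalized counts in TNF+ lungs and 1331, 1107 and 1016 in TNF- lungs (log2 fold change -1.06, SE 0.12, adjusted p = 0.000292), lower in every TNF+ lung than in any TNF- lung. Lrrc26 (log2 fold change -1.60) and Lrrc55 (2.52), gamma subunits of the large-conductance channel, moved apart, with 17, 23 and 21 counts in TNF+ lungs and 0, 7 and 5 in TNF- lungs for Lrrc55. Dpp6, a partner of A-type channels, was lower (log2 fold change -1.43, adjusted p = 0.00337). The sulfonylurea receptors Abcc8 (log2 fold change -0.57, adjusted p = 0.107) and Abcc9 (log2 fold change -0.02, adjusted p = 0.921), which complete ATP-sensitive channels, did not pass. Dpp10, Lrrc38 and Lrrc52 had too few counts to be tested.

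Levels between genes were compared per length, as RPKM, the CPM divided by the exon length in kilobases from GENCODE M21. Kcnj15 had the highest level without the transgene, at 13.5 ± 2.09 RPKM in TNF- lungs and 7.19 ± 1.19 in TNF+ lungs (SD, n = 3 each). Kcnq1 (9.93 ± 1.15 RPKM), Kcnk1 (6.99 ± 0.479 RPKM) and Kcne2 (6.12 ± 1.93 RPKM) were also among the highest, and Kcnk1 and Kcne2 differed from each other by less than the spread between lungs. In TNF+ lungs Kcnab2 stood first, at 9.91 ± 0.970 RPKM, above Kcnj15. Among the 56 tested members Kcnn4 stood at rank 20 in TNF- lungs and rank 3 in TNF+ lungs, at 1.58 ± 0.683 RPKM in TNF- lungs and 6.31 ± 1.56 in TNF+ lungs (SD, n = 3 each), and at rank 3 it was level with Kcnk6 within the spread (6.22 ± 0.256 RPKM). Kcnma1 was the lowest of the tested members per length in both genotypes, at 0.0351 ± 0.00644 RPKM in TNF- lungs and 0.0225 ± 0.00204 in TNF+ lungs (SD, n = 3 each), and in TNF- lungs it was level with Kcnb2 within the spread (0.0355 ± 0.0147 RPKM).

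**Figure D3:**
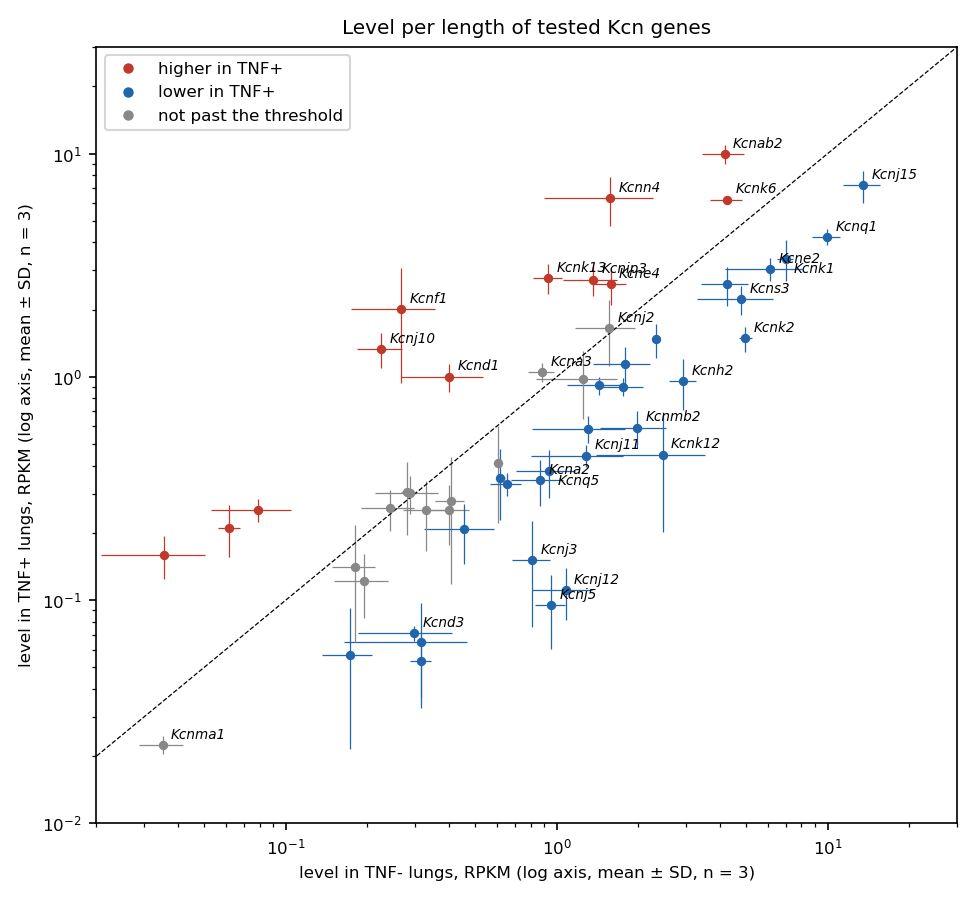
Mean level per length (RPKM, log axes, bars SD over 3 lungs) of 53 tested Kcn genes in TNF- lungs (horizontal) against TNF+ lungs (vertical), with a dashed line of equal level. Kcnab2, Kcnn4 and Kcnk6 lie above the line near the top, Kcnj15 and Kcnq1 lie below it at the right, and Kcnma1 lies lowest, at 0.0225 RPKM in TNF+ lungs.

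Summed over the class, the voltage-gated genes held 82.9 to 93.0 CPM in TNF+ lungs and 188 to 201 in TNF- lungs, the inward rectifiers 64.9 to 76.1 CPM in TNF+ lungs and 96.6 to 135 in TNF- lungs and the 2-pore genes 52.6 to 58.0 CPM in TNF+ lungs and 73.3 to 76.0 in TNF- lungs. The calcium- or sodium-activated genes held 28.5 to 44.2 CPM in TNF+ lungs and 16.7 to 22.6 in TNF- lungs, and the auxiliary genes held 84.4 to 97.6 CPM in TNF+ lungs and 62.1 to 75.0 in TNF- lungs. Each of these higher sums was carried by 1 gene and turned lower without it, to 5.37 to 6.22 CPM in TNF+ lungs and 10.5 to 11.7 in TNF- lungs without Kcnn4, and to 35.0 to 38.5 CPM in TNF+ lungs and 41.1 to 47.0 in TNF- lungs without Kcnab2. The lower sums of the voltage-gated genes stayed apart with any 1 of the 30 genes left out, while the genotypes overlapped without Kcnj15 among the inward rectifiers (19.1 to 28.1 CPM in TNF+ lungs and 25.1 to 37.0 in TNF- lungs) and without Kcnk2 among the 2-pore genes (46.4 to 50.1 CPM in TNF+ lungs and 49.8 to 50.1 in TNF- lungs). In each of these 5 full class sums the genotypes did not overlap, while the modifier genes, at 14.0 to 24.5 CPM in TNF- lungs, overlapped. Markers of the cells of the lung moved in the same comparison. All 8 macrophage markers were higher, with a sum of 3712 to 5719.8 CPM in TNF+ lungs and 381 to 422 in TNF- lungs. Marco alone held 1925, 3155 and 1638 CPM of that sum in TNF+ lungs and 8.55, 11.2 and 29.3 in TNF- lungs. Also higher were 5 of 6 T cell markers (343 to 494 CPM in TNF+ lungs and 42.5 to 78.4 in TNF- lungs, most of it Cd4 in TNF+ lungs) and 3 of 4 B cell markers (207 to 234 CPM in TNF+ lungs and 95.8 to 176 in TNF- lungs). Markers of muscle, vessel and epithelium were lower, in 6 of 7 smooth muscle genes (565 to 592 CPM in TNF+ lungs and 1025 to 1241 in TNF- lungs), 6 of 6 endothelial genes (1379 to 1594 CPM in TNF+ lungs and 2747 to 3290.2 in TNF- lungs), 5 of 5 alveolar type 1 genes (996 to 1244 CPM in TNF+ lungs and 2878 to 3133 in TNF- lungs) and 6 of 6 club and ciliated cell genes (5121 to 6776 CPM in TNF+ lungs and 14801 to 24300.0 in TNF- lungs). Among alveolar type 2 genes 2 of 5 were lower, or 4 with DESeq2 (12829 to 16534 CPM in TNF+ lungs and 19510.4 to 23291 in TNF- lungs), and 4 of 5 fibroblast genes were (779 to 808 CPM in TNF+ lungs and 1125 to 1828 in TNF- lungs). Most of the alveolar type 2 sum was Sftpc, which did not pass by edgeR's test (adjusted p = 0.0837). Of 7 neural and neuroendocrine genes 6 were tested and 5 were lower (6.91 to 8.67 CPM in TNF+ lungs and 17.1 to 20.3 in TNF- lungs). Fat cell genes held 3.49 to 30.5 CPM in TNF+ lungs and 29.2 to 59.0 in TNF- lungs, with 1 of the 3 tested lower. In the lists that TNF- replicate 1 dominates, 2 of 6 skeletal muscle genes and all 4 tested squamous genes were lower, but no gene of either list passed with limma-voom or with robust dispersion (0 of each) and 0 skeletal muscle and 2 squamous genes passed with DESeq2, and without that lung the sums in TNF- lungs were 28.9 and 32.1 CPM for skeletal muscle and 18.3 and 32.0 CPM for squamous epithelium. How much of the change in any channel gene goes with these shifts was not tested. None of the markers was at 0 in every lung (0 genes).

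**Figure D4:**
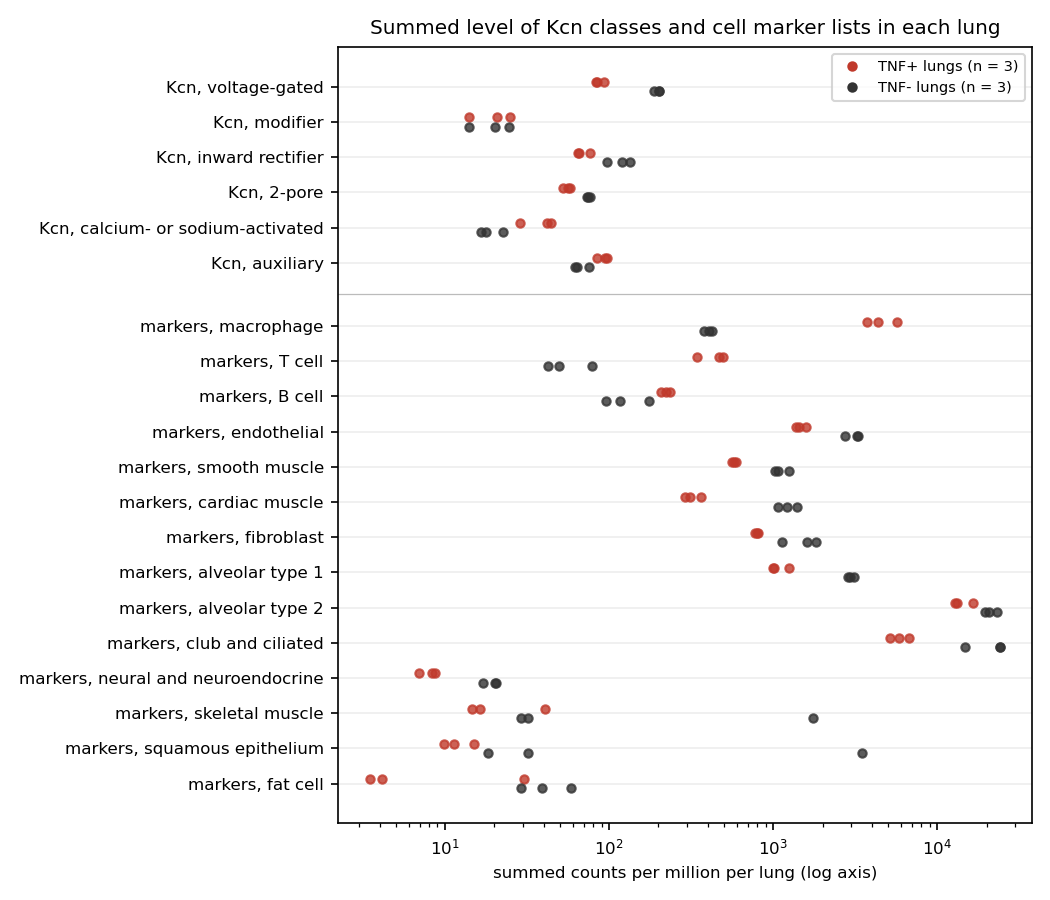
Summed CPM (log axis) of 6 Kcn classes (above) and 14 lists of cell markers (below) in each of the 3 TNF+ and 3 TNF- lungs. The voltage-gated, inward rectifier and 2-pore sums are lower in TNF+ lungs beside the muscle, vessel and epithelial markers, the calcium- or sodium-activated and auxiliary sums are higher through Kcnn4 and Kcnab2 alone and are lower without them, and 1 TNF- lung stands far right in the skeletal muscle and squamous lists.

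The 36 members that did not pass the filter had at most 28 counts in any lung, and 9 of them had under 3 counts in every lung. A difference in those 9 lay under the limit of detection at this depth, and in the others it was not tested in the main fit. Kcns2 had 0 counts in all 6 lungs. The highest of these counts, in TNF- replicate 1, belonged to Kcna1, with 5, 3 and 6 counts in TNF+ lungs and 28, 6 and 17 in TNF- lungs, and Kcna7, a channel of skeletal muscle, also had its highest count in that lung, with 3, 7 and 2 counts in TNF+ lungs and 20, 1 and 2 in TNF- lungs. Without the filter, 35 of the 36 entered the fit and 2 of them passed, Kcnh6 lower with 5, 5 and 2 counts in TNF+ lungs and 20, 10 and 23 in TNF- lungs (log2 fold change -1.87, SE 0.60, adjusted p = 0.0278) and Kcnip1 higher with 6, 8 and 16 counts in TNF+ lungs and 2, 4 and 2 in TNF- lungs (log2 fold change 2.02, SE 0.69, adjusted p = 0.0415). Kcne1, the cardiac partner of Kcnq1, had 1 count over all 6 lungs.

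Sharing of reads with other genes was limited. None of the 56 tested members shared 1% or more of its 100-base transcript windows with a locus elsewhere in GENCODE M21 (0 of 56). Kcnj14, a member with few counts, shared 20.2%. The strand setting of the counting is not given in the sources used here, and 6 tested members have 10% or more of their exon length under exons of the other strand. For Kcna6 and Kcnj3 the gene on that strand had at most 1 count per lung. For Kcnk2 it was A430027H14Rik with 13, 21 and 18 counts in TNF+ lungs and 60, 57 and 78 in TNF- lungs, lower in TNF+ lungs as Kcnk2 was, for Kcnmb4 it was Kcnmb4os1 with 0 in every lung and Kcnmb4os2 with 15, 10 and 14 against 3, 3 and 7, and for Kcnj13 it was Gigyf2 with 1024 to 1597, so the values of Kcnj13, Kcnk2 and Kcnmb4 are uncertain.

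The promoters of the members were read from RefSeq (GRCm38.p6, 250 bases before to 50 after each start), with 68 of 92 members matched. TNF signals through NF-kappaB, whose kappaB consensus of 10 bases was searched on both strands. A match in any of a gene's promoters was found in 2 of 9 members that rose (Kcnn4 and Kcnip3), 2 of 24 that fell (Kcnip4 and Kcns3), 13.2% of all matched members and 12.4% of 12148 matched genes tested, and the AP-1 site TGANTCA in 1 of 9, 2 of 24, 5.88% and 7.03%. Kcnab2, the member with the highest count among those that rose by over 1 on the log2 scale, held no kappaB match in any of its promoters. Kcnn4, the next by count, was chosen for display because it held one. The 100 bases before its start are shown with the kappaB match in capitals, 33 to 24 bases before the start.
Kcnn4 (chr7:24370163-24370262, plus strand): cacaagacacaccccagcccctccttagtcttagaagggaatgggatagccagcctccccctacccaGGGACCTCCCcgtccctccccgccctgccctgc
A match describes the letters in this window and says nothing of binding.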

How the data were processed

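Whole-lung poly(A) RNA was sequenced in 6 mice (single-end reads, stranded kit). Per the submitters' processing notes and the study's methods, reads were cleaned with Trimmomatic, mapped to mm10 (GRCm38) with STAR (version 2.5.2b) and counted with featureCounts, and the authors deposited raw counts per gene symbol, without normalization. The strand setting and annotation of the counting are not given in the sources used here. All 6 columns were matched to mice by genotype and number.

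The test was edgeR's quasi-likelihood test (edgeR version 4.0.16 in R version 4.3.3) after filterByExpr and TMM, with the 2 genotypes as groups and Benjamini-Hochberg adjustment over all 19199 genes, threshold 0.05. The filter asks for roughly 10 counts in 3 lungs. SE is the log2 fold change divided by the square root of F. Normalized counts rescale each lung's counts to the mean TMM library size. CPM use the same library sizes, and RPKM divide CPM by the union of exons in GENCODE M21. The rule for genes given per lung took the 12 called members with the largest rise (9 met the rule) and the 12 with the largest fall among those with a mean of at least 50 normalized counts, and the 6 with the highest mean. Other members are named by class, and those given per lung beyond the rule (such as Kcnb2, Kcnj12, Kcna5 and Kcnma1) were chosen after their values were seen. Some members and a sequence are not reported here. Members and lists were chosen with earlier results of these data known. Alternatives were DESeq2 (version 1.42.0), limma-voom (version 3.58.1), other scalings, filters and dispersions, the replicate number as a block, left-out lungs and a smallest log2 fold change of 1 in either direction. The 3 tools were tested on simulated counts. The 6 mice are different animals, and depth limits detection at 3 counts, 0.0922 to 0.118 CPM.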

Additional observations from a re-analysis of the deposited data

How the results depend on the processing

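Of the 42 members that passed, 34 passed in every one of the 15 other fits that could test them (10 higher and 24 lower), and none changed direction in any of them (0 of 42). The 8 that lost the threshold in at least 1 fit were Kcne4, Kcng4, Kcnh1, Kcnip2, Kcnj13, Kcnk7, Kcnmb1 and Kcnn2. Of the 14 that did not pass, Kcne3 and Kcng2 were among those that passed in at least 1. The number of members that passed was 42 of 72 tested with DESeq2 (58.3%, against 40.3% of all genes), 42 of 91 without a filter on low counts (46.2% against 26.1%), and, of 56, 41 with limma-voom (47.0% of all genes), 43 with DESeq2's size factors (47.3%), 41 with total counts only (42.1%) and 43 with robust dispersion (47.3%). It was 36 to 41 when single lungs were left out, the lowest without TNF+ replicate 1, and for all genes 7347 to 9164. A minimum absolute log2 fold change of 1 left 32 members and 4320 of the 9096 genes. Same-numbered mice are different animals and did not deviate together (correlations -0.15, -0.00 and -0.24), and a replicate block on those numbers left 37 members, 4 partner genes and 7686 genes past the threshold, with Kcne4 (log2 fold change 0.70, adjusted p = 0.058), Kcnh1, Kcnip2, Kcnj13 and Kcnk7 past it no longer. Across the 15 fits the marker genes that passed numbered 0 to 6 for skeletal muscle and for squamous epithelium, 0 to 3 for fat cells, 2 to 5 for fibroblasts, 2 to 6 for neural genes, 2 to 4 for alveolar type 2, 1 to 3 for B cells and 3 to 6 for T cells, and stayed within 1 of the number given for the other 6 lists. Kcnma1 had at most 23 counts in a lung.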
